A study of Mus musculus with 6 samples.

Results

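Fga, Fgb and Fgg, the genes of the 3 fibrinogen chains, and Fgl1, the gene of fibrinogen-like 1, were followed in primary mouse hepatocytes with and without the succinate receptor SUCNR1. They are 4 of the 25184 genes in the table of counts and 4 of the 15105 genes that passed the filter on low counts. Fgl1 was among the members chosen by its values in the comparison of the genotypes, where DESeq2 called it in earlier results of these data, and the chains were chosen by their kinship with it. Differences between genotypes of these 4 genes are therefore given as a description, with standard errors and without a p value.

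Fibrinogen is a soluble plasma protein built from paired Aα, Bβ and γ chains, which hepatocytes assemble in the endoplasmic reticulum and secrete. Thrombin cleaves it to fibrin, the mesh of a clot, and factor XIII crosslinks that mesh. The chains are acute phase genes, raised in hepatocytes by interleukin-6 through STAT3 together with C/EBP factors. FGL1, also called hepassocin, is a hepatocyte-secreted protein that shares the fibrinogen-like domain but is not a chain of fibrinogen. It is known as a ligand of the immune receptor LAG-3.

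Gene expression was measured by stranded mRNA sequencing of hepatocytes from chow-fed mice, taken from the left lateral lobe of the liver and cultured overnight on collagen. The 3 control libraries came from Sucnr1 fl/fl mice without Cre (Sucnr1 fl/fl Alb-Cre-/-), and the 3 Hep-Sucnr1 KO libraries from Alb-Cre+/- Sucnr1 fl/fl mice, in which the albumin promoter drives Cre in hepatocytes. All mice of both groups carried floxed Sucnr1 alleles, and the age of the animals that gave the sequenced cells is not stated, although the study describes mice of these genotypes as adult. RNA of fl/fl 1 and KO 3 was extracted on day 1 and that of fl/fl 2, fl/fl 3, KO 4 and KO 5 on day 2, so that both genotypes were present on both days. The control libraries are numbered 1 to 3 and the KO libraries 3 to 5, as in the labels. The labels do not state that each library is a separate animal, so p values measure only the spread between these libraries, which may be technical in part.

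The libraries held between 30504248 and 38770694 counts. Sucnr1, the targeted gene, was at 6.71, 3.55 and 3.40 CPM (counts scaled to the library total with TMM factors) in fl/fl 1, 2 and 3 and at 2.66, 0.827 and 0.152 CPM in KO 3, 4 and 5. All KO libraries lay below all controls, but KO 3 stood close to fl/fl 3. The table counts reads over the whole gene, including exon sequence outside the floxed exon. The part of such reads in the 84, 28 and 5 counts of Sucnr1 in KO 3, 4 and 5 was not tested. Summed markers of hepatocytes spanned 67101 to 90139 CPM in the controls and 59175 to 92503 CPM in the KO libraries, with none of the 8 genes at 0. Kupffer cell markers summed to at most 179 CPM, and the 8 markers of megakaryocytes and platelets, which also carry fibrinogen, to at most 1.56 CPM, 2 of them being at 0 in all libraries.

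Fgg, Fga and Fgb lie together on chromosome 3 (GRCm38), within 42.14 kb. Fgg (ENSMUSG00000033860) spans chr3:83007724-83015049 on the plus strand, Fga (ENSMUSG00000028001) spans chr3:83026076-83033627 on the plus strand, and Fgb (ENSMUSG00000033831) spans chr3:83040141-83049863 on the minus strand. Fga and Fgb thus point towards each other across a gap of 6513 bases. Sucnr1 is on the same chromosome, 22.9 Mb from the cluster. Fgl1 (ENSMUSG00000031594) is on chromosome 8, at chr8:41191434-41215156 on the minus strand, and shares no locus with the chains. The annotation holds 2 transcripts each for Fga, Fgg and Fgl1 and 1 for Fgb, which counts per gene do not tell apart.

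The stretches just upstream of the 3 chain genes are shown as a description, and their part in the levels of the chains was not tested. They are from RefSeq (GRCm38.p6), 5′ to 3′ on the strand of each gene, and capitals mark CTGGGA, the core of the type II interleukin-6 element of acute phase promoters. The Fga stretch, which ends before the more upstream of its annotated starts, is chr3:83025903-83026075 (plus strand), the Fgb stretch chr3:83049864-83050113 (minus strand) and the Fgg stretch chr3:83007474-83007723 (plus strand). The table of promoters used here matched 3 of the 4 genes, Fgl1 being the one without an entry.
Fga: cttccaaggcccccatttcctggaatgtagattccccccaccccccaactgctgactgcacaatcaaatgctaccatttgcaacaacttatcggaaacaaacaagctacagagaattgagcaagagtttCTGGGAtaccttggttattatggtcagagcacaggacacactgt
Fgb: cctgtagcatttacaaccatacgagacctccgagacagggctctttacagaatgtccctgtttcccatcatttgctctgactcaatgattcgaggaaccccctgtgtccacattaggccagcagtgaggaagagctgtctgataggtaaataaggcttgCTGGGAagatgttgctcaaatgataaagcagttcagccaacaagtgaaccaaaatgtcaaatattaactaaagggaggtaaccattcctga
Fgg: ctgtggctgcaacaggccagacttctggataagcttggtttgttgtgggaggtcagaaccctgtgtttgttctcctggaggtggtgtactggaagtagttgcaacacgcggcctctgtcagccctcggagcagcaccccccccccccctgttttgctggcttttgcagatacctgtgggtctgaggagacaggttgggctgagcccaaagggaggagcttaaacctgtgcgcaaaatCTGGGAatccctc

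CTGGGA was found in the promoter window (250 bases before to 50 after the RefSeq start, both strands) of all 3 chains, and in 31.8% of all 32851 windows of this length. It lay at -121 to -116 in Fga, at -91 to -86 in Fgb and at -13 to -8 in Fgg, counted from the RefSeq start, and Fgb held a further copy on the opposite strand at 45 to 50. TTCNNNGAA, the letters of a STAT3 site, occurred in Fga at -234 to -226 and in Fgb at -162 to -154, and in 8.30% of all windows. TTGCNNAA, a C/EBP site, occurred in Fga (-135 to -128) and Fgb (-80 to -73) and in 10.8% of windows. The letters of these STAT3 and C/EBP motifs were not present in the Fgg window, and TATAAA, found in 13.6% of windows, was in none of the 3. None of the matches overlapped another. These are matches of letters, and binding of a factor was not measured.

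The chains were among the most abundant transcripts of these cultures. By mean CPM over the 6 libraries Fgb ranked 23, Fga 24 and Fgg 33 of 15105 genes, and together they took between 1.58% and 2.02% of all counts. Fgl1 ranked 399. Divided by the length of the merged exons, the order was Fgg at 2322 CPM per kb, Fga at 2120, Fgb at 1684 and Fgl1 at 64.5. The SD over the 6 libraries was 282 CPM per kb for Fgg and 245 for Fga, more than the step between them, whereas Fgb (SD 183) was below Fga in every library and Fgl1 was far below all chains. Angptl4, a secreted inhibitor of lipoprotein lipase with a fibrinogen-like domain, was at 45.6 CPM per kb.

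Fga, which encodes the Aα chain, was at 6592, 5612 and 6075 CPM in fl/fl 1, 2 and 3 and at 5856, 6466 and 7689 CPM in KO 3, 4 and 5. The genotypes overlapped, with KO 3 below 2 of the 3 controls and KO 5 above all other libraries. On average Fga stood at 6093 ± 490 CPM in the controls and 6670 ± 933 CPM in the KO libraries (mean ± SD of 3 libraries). The log2 fold change in the model with extraction day was 0.13 (SE 0.19), smaller than its standard error.

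Fgb, which encodes the Bβ chain, was at 6476, 5624 and 5925 CPM in the controls and at 6681, 6178 and 7613 CPM in KO 3, 4 and 5. KO 4 lay below fl/fl 1, so that the groups overlapped here too. Group means were 6008 ± 432 CPM for controls and 6824 ± 728 CPM for KO libraries (SD, n = 3), a log2 fold change of 0.19 (SE 0.17).

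Fgg, which encodes the γ chain, was at 4775, 4035 and 4542 CPM in the controls and at 5082, 4916 and 5806 CPM in the KO libraries. All 3 KO libraries were above all 3 controls, by a margin of 1.03-fold between the nearest pair, KO 4 and fl/fl 1. Group means were 4451 ± 378 CPM for controls and 5268 ± 474 CPM for KO libraries (SD, n = 3), a log2 fold change of 0.24 (SE 0.17).

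Fgl1 was at 138, 214 and 187 CPM in the controls and at 487, 340 and 350 CPM in KO 3, 4 and 5. The lowest KO library was 1.59-fold above the highest control, and both the lowest and the highest value, fl/fl 1 and KO 3, came from extraction day 1. Group means were 180 ± 38.4 CPM for controls and 393 ± 82.3 CPM for KO libraries (SD, n = 3). The log2 difference was 1.12 (SE 0.23), which is 2.18-fold. Counting error was small beside this spread, since the smallest count of Fgl1 was 5318.

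**Figure D1:**
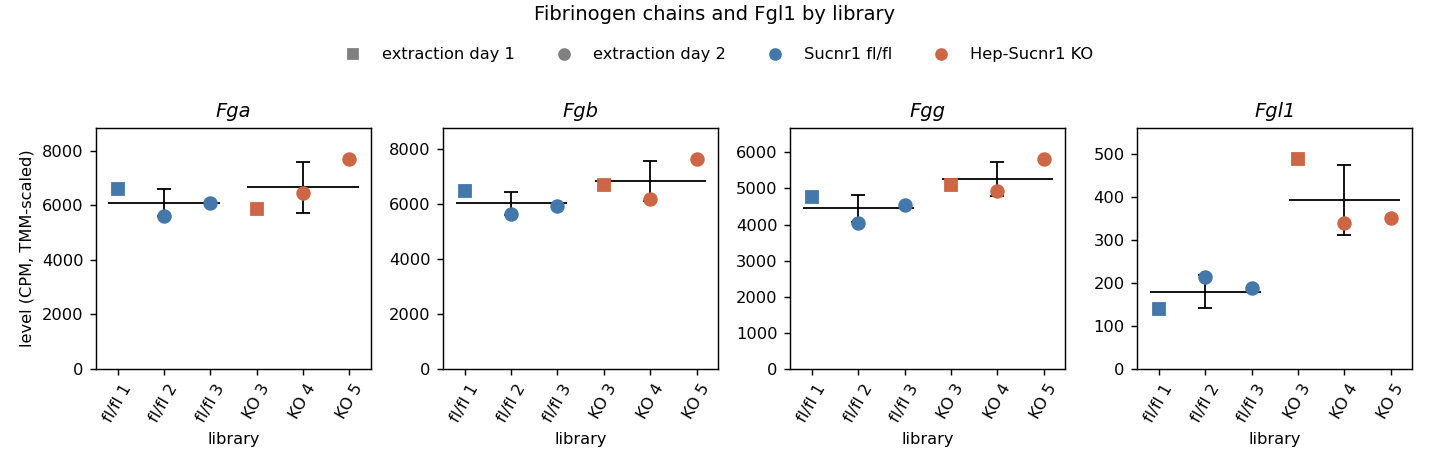
Level in CPM (TMM-scaled, linear axes from 0) of Fga, Fgb, Fgg and Fgl1 in each of the 6 libraries, with blue points for Sucnr1 fl/fl, orange for Hep-Sucnr1 KO, squares for extraction day 1 and circles for day 2; black lines are the mean and SD of each genotype (n = 3). The genotypes overlap for Fga and Fgb, are separated narrowly for Fgg and are well apart for Fgl1, whose KO libraries lie at 340 to 487 CPM against 138 to 214 CPM.

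Of the 4 genes, Fgg and Fgl1 did not overlap between genotypes, both being higher in Hep-Sucnr1 KO. Over all genes tested 6.54% did not overlap in that direction and 4.04% in the other, and nothing is read from the members' count because the comparison chose them. With Benjamini-Hochberg adjustment, edgeR's quasi-likelihood test called 0 of the 4 at an FDR of 0.05 and 0% of all 15105 genes, of which 563 had an unadjusted p below 0.05. DESeq2, with extraction day as covariate, called 1 of the 4 as higher, Fgl1, against 0.0545% of the genes for which it gave an adjusted p, and 7 genes in all. Among the 1249 genes with a mean of at least 100 CPM, Fgl1 ranked 5 by its log2 fold change, Fgg 106, Fgb 177 and Fga 314. The genes at ranks 1 to 4 and 6 to 11 were all of the Mup family. How reads shared within that family were treated is not stated, so their separate values and ranks are uncertain. Nothing is read from the rank of Fgl1, because the same comparison chose it. The median log2 fold change of all genes tested was 0.003.

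Because both genotypes were extracted on both days, the differences can also be set out within each day. Fgl1 in KO 3 was 3.52-fold that in fl/fl 1 on day 1, and on day 2 the KO libraries were 1.72-fold the controls. For Fga the corresponding ratios were 0.888 and 1.21, for Fgb 1.03 and 1.19, and for Fgg 1.06 and 1.25. On day 1, with 1 library of each genotype, the chains thus differed little while Fgl1 differed most. For Sucnr1 itself the KO libraries were at 0.396 of the control on day 1 and 0.141 of the controls on day 2. The larger difference of Fgl1 thus fell on the day with the smaller relative loss of Sucnr1, and a relation between the 2 was not tested. The interaction of genotype and day for Fgl1 was -1.03 on the log2 scale (SE 0.29). It is given as a description, since Fgl1 was chosen on its genotype values and day 1 holds 1 library of each genotype. For the interaction edgeR called 0 of the 4 genes and 0% of all genes, and 557 genes (3.69%) had an unadjusted p below 0.05.

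Averaged over the genotypes, extraction day, a comparison that did not choose the members, gave no detectable difference in any of them. The log2 fold change of day 2 against day 1 was 0.04 for Fga (SE 0.20), -0.06 for Fgb (SE 0.18), -0.04 for Fgg (SE 0.18) and -0.01 for Fgl1 (SE 0.24), with FDRs of 0.995, 0.991, 0.995 and 0.999 by edgeR's quasi-likelihood test. Two-sided exact permutation tests of the 4 libraries of day 2 against the 2 of day 1 gave p values of 0.933, 0.667, 0.8 and 1 in the same order, where the smallest possible is 0.133. edgeR called 0 of the 4 and 0% of all genes by day, with 1132 genes at an unadjusted p below 0.05. DESeq2 called 0 of the 4, against 1.61% of genes (225). The permutation tests did not take genotype into account. For Fgl1 the day values averaged opposite differences within the genotypes. Day 2 was 1.45-fold day 1 in the controls and 0.708-fold in the KO libraries, each with 1 library on day 1. The model value for Fgl1 was accordingly -0.50 without fl/fl 1 and 0.50 without KO 3.

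Leaving out a library moved the genotype difference of Fgl1 to between 0.77 (without KO 3) and 1.27 (without fl/fl 2), on the log2 scale. Without fl/fl 1 it was 0.78. For the chains the same ranges were 0.01 to 0.28 for Fga, 0.07 to 0.26 for Fgb and 0.15 to 0.32 for Fgg. In each chain the lowest value came without KO 5 and the highest without fl/fl 1.

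**Figure D2:**
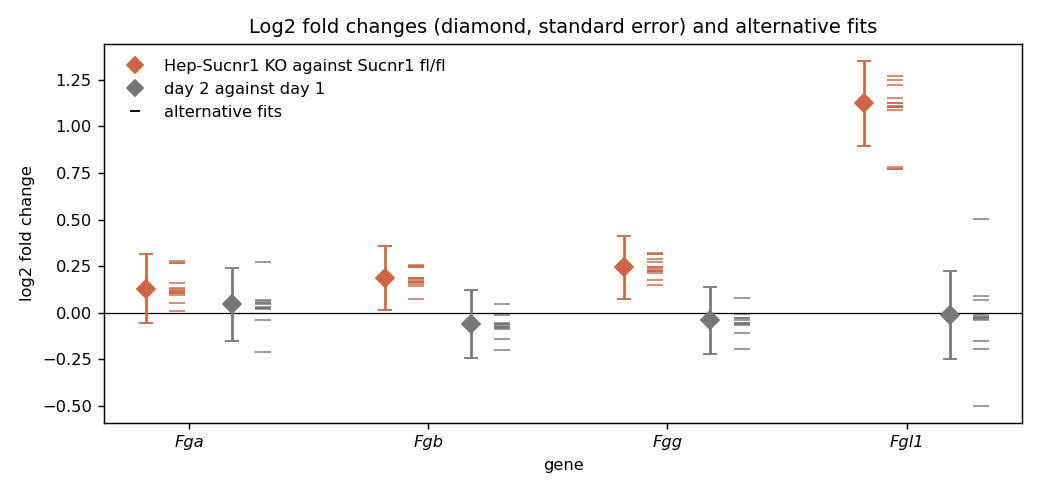
Log2 fold changes of the 4 genes between genotypes (orange) and between extraction days (grey), with diamonds and bars for the estimate and its standard error, and dashes for the alternative fits, in which the test, scaling, filter, covariate or set of libraries was changed. All genotype values of Fgl1 lie between 0.77 and 1.27, above those of the chains. The day values of all 4 genes lie on both sides of 0, those of Fgl1 from -0.50 to 0.50.

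The proportions of the chains to each other varied little. Per length, Fga made up 35.5%, 35.4% and 35.1% of the 3 chains in fl/fl 1, 2 and 3 and 31.8%, 35.1% and 34.9% in KO 3, 4 and 5. Fgb made up 27.5%, 28.0% and 27.1% in the controls and 28.6%, 26.5% and 27.3% in the KO libraries. Fgg made up 37.0%, 36.6% and 37.8% in the controls and 39.6%, 38.4% and 37.9% in the KO libraries. KO 3 was the library that departed from the others, with less Fga for its Fgb and Fgg.

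The ratio of Fgg to Fga per length was 1.04, 1.03 and 1.08 in the controls and 1.25, 1.09 and 1.09 in the KO libraries. The groups did not overlap, but KO 4 and KO 5 exceeded fl/fl 3 by little, and the mean of 1.14 ± 0.091 in Hep-Sucnr1 KO against 1.05 ± 0.022 in Sucnr1 fl/fl (SD, n = 3 each) rested largely on KO 3. The ratios of Fgb to Fga and of Fgg to Fgb overlapped between genotypes. Fgl1 stood at 15.2, 27.5 and 22.1 per 1000 of the mean chain in the controls and at 53.8, 37.6 and 32.4 in the KO libraries, so that Fgl1 was higher in relation to the chains in every KO library.

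**Figure D3:**
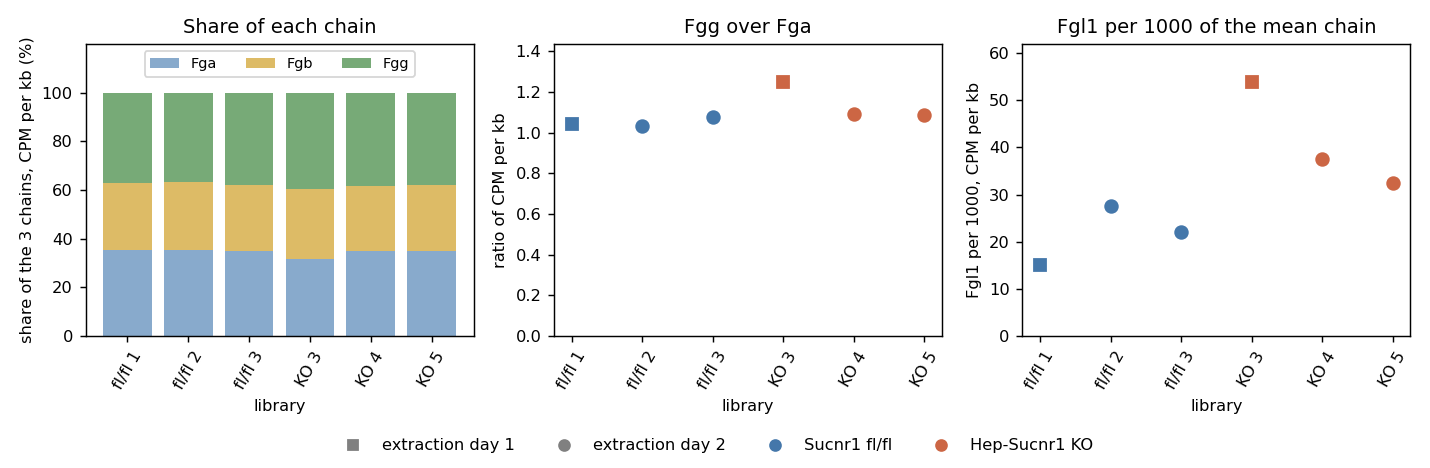
Left, the share of each chain in the sum of the 3 chains by library, in percent of CPM per kb; middle, the ratio of Fgg to Fga; right, Fgl1 per 1000 of the mean chain, with colours for genotype and point shapes for extraction day. The shares are nearly level except in KO 3, where the ratio of Fgg to Fga reaches 1.25, and Fgl1 per 1000 runs from 15.2 in fl/fl 1 to 53.8 in KO 3.

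Across the 6 libraries the chains moved together. Pearson's r of log2 CPM was 0.96 for Fgb and Fgg, 0.83 for Fga and Fgb and 0.83 for Fga and Fgg. After the genotype means were removed, r was 0.95, 0.80 and 0.87 for the same pairs. Fgl1 followed them less, with r of 0.10 with Fga, 0.45 with Fgb and 0.54 with Fgg, and within genotypes these values were -0.79, -0.45 and -0.59. All are descriptions over 6 libraries that share genotype, day and scaling, and within 3 libraries a genotype 1 library can set the sign.

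Among 7062 genes with a mean of at least 10 CPM, those whose profile was most like the mean of the chains included Apof (r 0.98), which encodes apolipoprotein F, Rpl22l1 (0.98), Mad2l2 (0.97) and Aifm1 (0.97). The 10 most like Fgl1 were Rps2-ps6, Atpaf2, Gm5921, Rpl6, Gstm4, Gm10736, Rps6-ps3, Gm6136, Wdr83os and Psmb5, with r between 0.96 and 1.00. Of these, 5 are processed pseudogenes, whose counts are uncertain where they share reads with their parent genes. Their log2 fold changes between genotypes were 0.14 to 0.37, well below that of Fgl1. With 6 libraries high values of r are common, and 92 genes reached 0.9 with Fgl1 and 50 with the chains.

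The genes that rise with the chains in an acute phase response were taken next. Of 26 other acute phase genes, 25 had a log2 fold change above 0 between genotypes, with a median of 0.26, against 50.5% of all genes and their median of 0.003. The genotypes did not overlap for 8 of them, all higher in Hep-Sucnr1 KO: Hp, Lbp, Apcs, Saa1, Saa2, Orm1, Orm2 and Orm3. Over all genes tested 6.54% did not overlap in that direction. Saa1 and Saa2, and Orm1 to Orm3, are near-identical copies, so these 8 are not separate observations. At an FDR of 0.05 edgeR's quasi-likelihood test called 0 of the 26. By that test 10 had an unadjusted p below 0.05, against 563 of all 15105 genes. DESeq2 called 1, Lbp, against 0.0545% of the genes with an adjusted p as higher. The list was chosen with earlier results of these data known, and its count is not independent evidence of a direction.

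Hp, which encodes haptoglobin, was at 4928, 4719 and 5242 CPM in the controls and at 6780, 6415 and 6611 CPM in KO 3, 4 and 5, a log2 fold change of 0.41 (SE 0.16). Lbp, which encodes the lipopolysaccharide-binding protein, was at 87.3, 94.0 and 116 CPM in the controls and at 137, 162 and 173 CPM in the KO libraries, a log2 fold change of 0.67 (SE 0.12). In both genes every KO library lay above every control. Saa3, a serum amyloid A gene, had the highest value of the list at 0.82 (SE 0.36), but KO 4 at 218 CPM set it and the groups overlapped. Cfb, encoding complement factor B, had the lowest at -0.09 (SE 0.17). Saa1 and Saa2, Orm1 to Orm3, and Serpina1a and Serpina1b are near-identical copies, and the sources used here do not state how reads shared by such copies were treated, so their separate values are uncertain.

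The median deviation of the 26 genes from their means over the libraries was -0.21, -0.29 and -0.07 on the log2 scale in fl/fl 1, 2 and 3 and 0.16, 0.15 and 0.18 in KO 3, 4 and 5. Pearson's r of this median with log2 CPM over the 6 libraries was 0.85 for Fgl1, 0.83 for Fgg, 0.67 for Fgb and 0.48 for Fga. Within genotypes r was -0.09 for Fgl1, 0.49 for Fgg, 0.25 for Fgb and 0.26 for Fga, so that for Fgl1 the value over all libraries was that of the difference between genotypes, on which it was chosen. Fgl1 was lowest in fl/fl 1 and highest in KO 3, whereas the median of the list was lowest in fl/fl 2 and highest in KO 5.

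**Figure D4:**
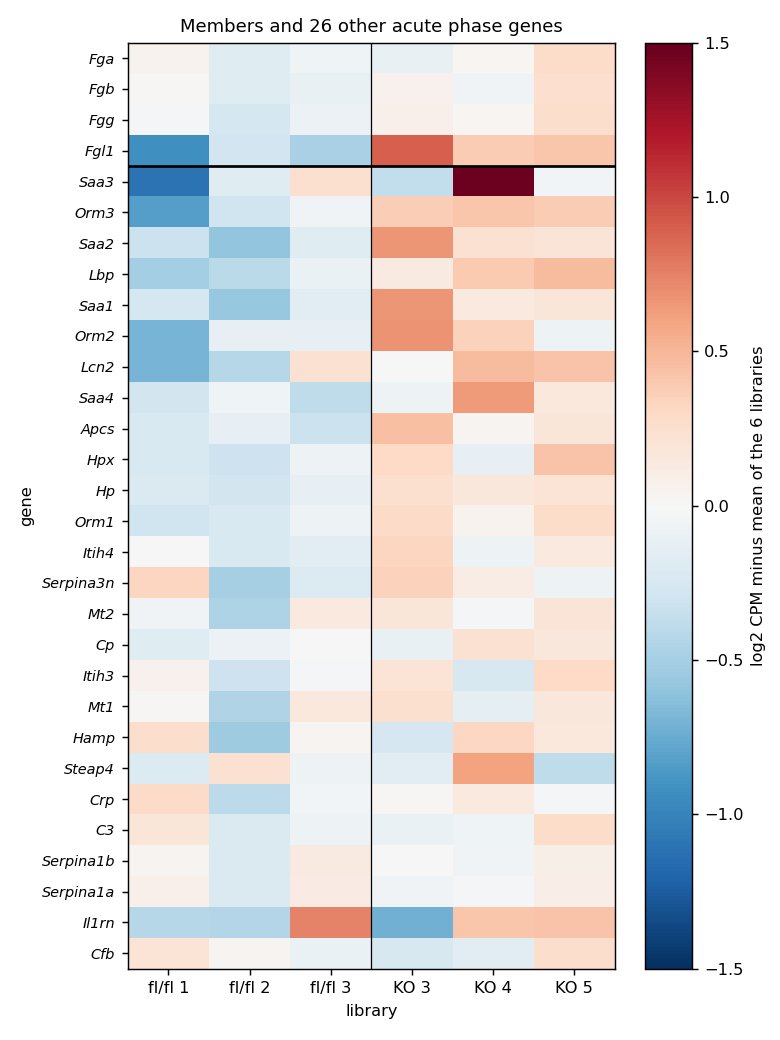
Log2 CPM minus the mean of the 6 libraries for the 4 members (top 4 rows) and 26 other acute phase genes, ordered by their log2 fold change between genotypes, with red above and blue below the mean. Fgl1 is blue in all controls and red in all KO libraries, the chains are pale throughout, and the genes below run from Saa3 at 0.82 to Cfb at -0.09.

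In the 8 further lists that follow, edgeR and DESeq2 called 0 genes at the FDR threshold, and the highest and lowest values named are of genes with a mean of at least 1 CPM. The genes upstream of the chains showed smaller values. Of 16 tested genes of interleukin-6 family signalling, 5 were above 0 with a median log2 fold change of -0.07, none was without overlap and none had an unadjusted p below 0.05. Il6ra, the receptor subunit that binds interleukin-6, was at -0.01, Stat3, the factor it activates, at -0.16 and Socs3, its feedback inhibitor and target, at 0.00. Osmr, the oncostatin M receptor, had the highest value at 0.20 and Cish, another inhibitor of cytokine signalling, the lowest at -0.28. Of 14 transcription factors that act on fibrinogen promoters 4 were above 0, with a median of -0.05. Cebpd was highest at 0.33 and Foxa1 lowest at -0.31, with Cebpb at -0.02. RNA of these regulators does not report their activity as proteins.

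Of 8 negative acute phase genes, which fall when fibrinogen rises in that response, 4 were above 0, with a median of -0.01. Alb, the gene of albumin, whose promoter drives the Cre, was at -0.19 (SE 0.30) and Trf, the gene of transferrin, was highest at 0.16. Of 23 genes of folding, glycosylation and export in the endoplasmic reticulum, the route the chains take, 17 were above 0 with a median of 0.08. Hsp90b1, a chaperone, was highest at 0.37 and Sec24a, a coat component of export vesicles, lowest at -0.36, and Rpn2 was without overlap and higher.

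Downstream of the chains, 20 genes of thrombin formation and fibrin crosslinking had a median of -0.003, with 10 above 0. F2, the gene of prothrombin, was at 0.04 and F7 was highest at 0.13. F13a1, the A subunit of the crosslinking enzyme, was below that level, at 0.0260, 0.0301 and 0.495 CPM in the controls and 0.0317, 1.27 and 1.24 CPM in KO 3, 4 and 5, and overlapped. Its log2 fold change between extraction days, 4.38 (SE 1.17), was larger than that between genotypes, 2.11 (SE 0.82). The part of cells other than hepatocytes in the value of F13a1 was not tested. F13a1 and Thbd were the genes of this list with an unadjusted p below 0.05 by edgeR. Thbd, encoding thrombomodulin, an endothelial cofactor that turns thrombin towards protein C, was lowest at -0.81 and the only one without overlap. Sinusoidal endothelial markers were below 0 in 7 of 8 genes, with a median of -0.24, and their part in the value of Thbd was not tested. Of 10 genes of fibrinolysis 9 were above 0, with a median of 0.10, among them Plg, the gene of plasminogen, at 0.07. Plat was highest at 0.43 and Plau lowest at -0.00, and Cpb2, whose product slows fibrin breakdown, was without overlap at 0.25.

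Of the fibrinogen-like domain family 8 of 18 listed genes were tested, 3 were above 0 and the median was -0.09. Fgl2, a prothrombinase, was at only 1.13 CPM and had the highest value at 0.35 (SE 0.52). Angpt2, an endothelial ligand, was lowest at -0.69, without overlap and the one gene of the family with an unadjusted p below 0.05 by edgeR. Of the transcription factors, negative acute phase genes, export genes, fibrinolysis genes and receptors, 0 had such a p. Of 9 receptors of fibrinogen and FGL1, 4 were above 0, with Lag3 highest at 0.39 and a mean of 1.13 CPM, and Itgb3 lowest at -0.26.

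**Figure D5:**
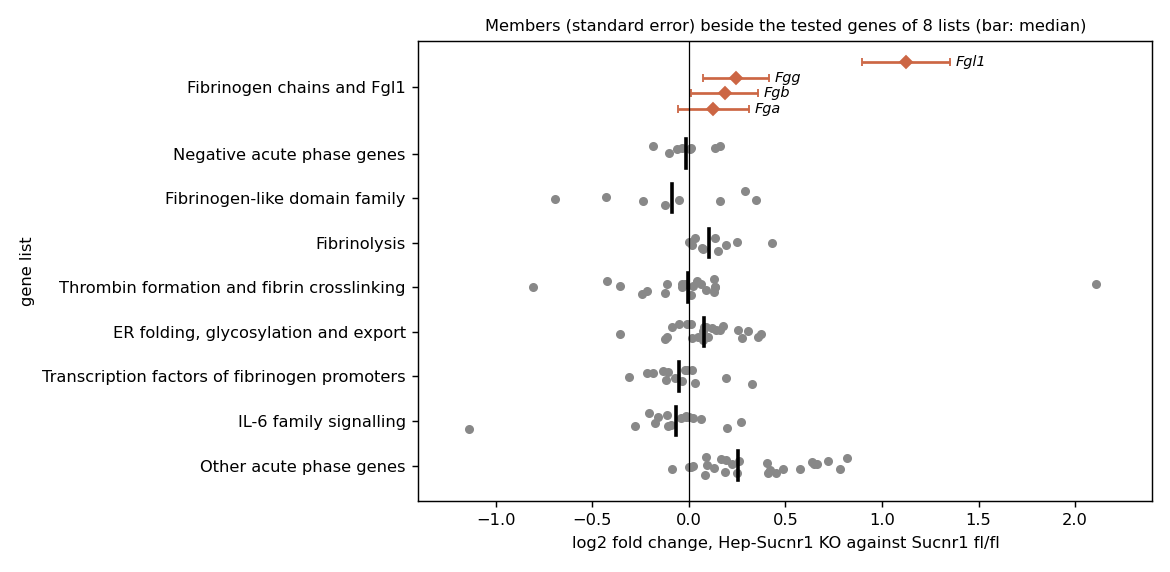
Log2 fold change between genotypes of the 4 members (orange diamonds, bars for the standard error) above the tested genes of 8 lists (grey points, a black bar for the median of each list). Fgl1 at 1.12 lies above every gene of these 8 lists except F13a1 at 2.11, which had a mean of 0.516 CPM. Il11, with a mean of 0.375 CPM, is lowest at -1.14. The chains lie within the range of the other acute phase genes.

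The neighbours of both loci were also read. Plrg1, 5.66 kb beyond the cluster on the Fgb side, was at 0.17 (SE 0.13). Gm30097, a noncoding gene on the minus strand, overlaps the start of Fgg and was at 0.165 CPM in counts made by strand. Next to Fgl1, Gm16348 (2.98 kb away) was at 0.02 and Mtus1 (57.7 kb) at 0.02. Of 8 tested genes within 500 kb of Fgl1 the highest value among those with at least 1 CPM was Frg1 at 0.13 and the lowest Slc7a2 at -0.32, and Pcm1 was lower without overlap at -0.13.

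Markers of cells other than hepatocytes were mostly at low levels and differed between libraries. The 11 Kupffer cell markers summed to 81.3, 56.5 and 179 CPM in fl/fl 1, 2 and 3 and to 37.4, 145 and 125 CPM in KO 3, 4 and 5. The groups overlapped, and KO 3, the library with the highest Fgl1, was the lowest of all for 10 of the 11 genes. In the model with extraction day all 11 had a log2 fold change below 0 between genotypes (median -0.40) and their median day difference was 2.07, yet the mean CPM of 5 of them was higher in the KO libraries. Sinusoidal endothelial markers summed to 26.7 to 49.1 CPM in the controls and 22.2 to 35.0 CPM in the KO libraries, and all 8 stellate cell markers to 4.71 to 21.3 CPM and 3.49 to 7.92 CPM. The 6 neutrophil markers together stayed at or below 2.92 CPM. All 3 that were tested had a log2 fold change above 0 between genotypes, with a median of 1.11. Ngp was without overlap and higher in Hep-Sucnr1 KO, at 0.532 CPM or less. Of the cholangiocyte markers Spp1, at 266 to 526 CPM, and Sox9 made up nearly the whole sum, and the 3 others together stayed at or below 3.52 CPM. Of the erythroid markers Alas2 was at 71.2 to 102 CPM, and the 4 globin genes together at 2.38 to 15.1 CPM in the controls and 1.61 to 13.1 CPM in the KO libraries. The part of these cells in the values of Fgl1 and the chains was not tested, and in bulk RNA a change in the number of expressing cells cannot be told apart from a change in RNA per cell. The index series of the libraries also divided partly by genotype, with fl/fl 1 and fl/fl 2 in one run of numbers and the other 4 libraries in another, and its part was not tested.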

How the data were processed

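Messenger RNA of primary hepatocytes was sequenced in 3 Sucnr1 fl/fl and 3 Hep-Sucnr1 KO libraries, grouped by the genotype in the labels. The authors trimmed the reads with Trim Galore 0.6.7, aligned them to GRCm38 with STAR 2.7.10a and deposited raw counts of read pairs per gene, made with featureCounts by strand, in 1 table. The deposited counts are not normalized. A symbol, coordinates and exon lengths were found for 25130 of 25184 gene identifiers in the GENCODE annotation of that build. With 30504248 to 38770694 counts per library, counting error was small for the members beside the spread between libraries (common biological coefficient of variation 0.206).

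edgeR 4.0.16 under R 4.3.3 gave CPM after TMM scaling, and log2 CPM with a prior count of 2. The filter kept genes whose DESeq2-normalized count exceeded 5 on average. Genotype and extraction day were fitted together with edgeR's quasi-likelihood test over all 15105 genes, with Benjamini-Hochberg adjustment and an FDR threshold of 0.05, and the interaction in a further fit. DESeq2 1.42.0 was the alternative, and others changed scaling, filter, covariate, length or libraries. The fits were tested on simulated data. Levels were divided by the merged exon length in kb. Two-sided exact permutation tests compared single genes between days. Tables were made with Python 3.11.15, pandas 2.3.3 and SciPy 1.17.1. Named were, besides the members, in each list the gene of at least 1 CPM with the highest and the lowest log2 fold change, a few fixed genes (such as Hp, Lbp, Stat3 and Alb), the nearest neighbours, and the genes most like Fgl1 (10) and the chains (5). Some genes that this rule takes in are not reported here. The genes whose genotypes did not overlap in a list, Angptl4, F13a1 and the copies Saa1, Saa2, Serpina1a and Serpina1b were named after their values were seen. The members and lists were chosen with earlier results of these data known.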

Additional observations from a re-analysis of the deposited data

How the results depend on the processing

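Of 56 alternative values of the members' genotype differences 53 moved by less than the SD between libraries of a genotype. That count is not a measure of stability, since the robust fit left the fold changes of all members the same. The exceptions were of Fgl1, whose log2 fold change of 1.12 was 0.77 with the day 2 libraries alone, 0.77 without KO 3 and 0.78 without fl/fl 1. They repeat each other, because leaving out either day 1 library leaves the genotype comparison to day 2. With 1 library left out the value of Fgl1 ran from 0.77 to 1.27. For extraction day no member passed the FDR threshold in any fit, which says nothing of stability because most fits called 0 genes, and the value of Fgl1 ran from -0.50 to 0.50 with 1 library left out. The genotype comparison called 0 genes by edgeR and 7 by DESeq2, or 13 with its independent filtering set to 0.05, an alternative added after the data were seen. The day comparison called 0 genes by edgeR, 225 by DESeq2 (227 with that filtering), 122 by edgeR without a filter on low counts and 0 to 29 with 1 library left out, 29 without fl/fl 2. With the longest transcript as length Fgb made up 24.3% and Fgg 40.2% of the chains, and with no division by length Fga made up 36.2%, Fgb 36.4% and Fgg 27.5%, and Fgl1 48.3 per 1000, which follows from the lengths used. Of the 10 genes most like Fgl1, 6 were shared with Spearman's rho, 5 with a minimum of 1 CPM and 3 to 5 with 1 library left out. Of the 5 most like the chains, 0 were shared with Spearman's rho and 0 to 3 with 1 library left out. For the other changed values the cause was not tested. No paired analysis was made because the labels give no pairs of libraries between genotypes. Replicate number 3, which both genotypes hold, was extracted on day 2 in the controls and on day 1 in the KO libraries. With 3 libraries a genotype and 1 of each on day 1, differences of the size seen in the chains did not stand clear of the spread between libraries, and the day 1 value of Fgl1 has no replicate.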
